A study of Aspergillus glaucus with 6 samples.

Results

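In Aspergillus glaucus CCHA, a filamentous fungus that grows in strong brine, the genes with much lower transcript levels in high salt included stretches in which consecutive gene IDs were lower together. These stretches, called runs here, held 51 genes in 11 runs of 4 to 7 consecutive ID numbers, of 8441 gene IDs listed in all. The members were chosen from measured values. The way they were chosen is not stated and was inferred from the counts, by a rule that returns exactly these 51 IDs. By it, each run is a stretch of at least 4 consecutive numbers that were all 4-fold or more lower in 4 M than in 0 M NaCl at 84 h, or all 4-fold or more lower in 3 M than in 1 M NaCl at 36 h. Each ID also had to reach 10 CPM (read counts divided by the scaled library size) in at least 1 of the 2 libraries compared, and such a gene is called measured below. The first comparison gave 9 runs and the second gave 5, and 3 of the runs appeared in both. Of these 3, AG07928.1 to AG07932.1 ended at AG07931.1 in the second comparison, where AG07932.1 was under 10 CPM. The values in these comparisons therefore describe the choice and support nothing by themselves.

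RNA was sequenced from mycelium of strain CCHA grown with or without added NaCl, with 1 library for each of 6 conditions. At 36 h the treatments were 1 M and 3 M NaCl, and at 84 h they were 0 M, 1 M, 3 M and 4 M NaCl. With 1 library each, no p-value was computed and no difference could be set against a spread between cultures. Total counts ran from 16371771 to 18376857 per library, and 3 counts corresponded to 0.155 to 0.185 CPM. A count of 0 allows levels up to that limit. Intervals given below are exact 95% intervals of counting error only. The 36 h library in 3 M and the 84 h library in 4 M are the libraries in which the members were chosen to be low. Over all measured genes, 9.98% were 4-fold or more lower in 4 M than in 0 M at 84 h, and 9.08% lower than in 3 M. For 3 M at 36 h, 8.82% were lower than in 1 M at 36 h, and 8.35% lower than in 3 M at 84 h. Opposite changes in these comparisons were 2.05% to 3.54%. In the comparisons without these libraries, the shares lower or higher were 2.44% to 4.6%. Why the shares differed was not tested. Both choices of runs rest on 1 of these libraries each, and neither choice can be repeated without it.

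In filamentous fungi, genes that work in one biosynthetic or nutrient-use pathway often lie side by side on the chromosome. The best known cases are the secondary metabolite clusters, in which a backbone synthase or synthetase, tailoring enzymes, a transporter and often a pathway regulator are switched on and off together, commonly with the growth stage. High NaCl is both an osmotic and an ionic stress, which such fungi meet with compatible solutes such as glycerol and with sodium export. The files give gene IDs without names, and none of the IDs matched the RefSeq table of another strain of the species (0 of 51 members). No function is therefore given to any member, the identity of the mycelium could not be checked against marker genes, and whether consecutive ID numbers lie next to each other in the genome was not analysed here.

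Together the members took 1.97% of all counts without added salt at 84 h, 1.25% in 1 M, 0.954% in 3 M and 0.0558% in 4 M. Their share at 36 h was 0.907% in 1 M and 0.18% in 3 M. Levels in these bulk samples cannot tell fewer cells of a type from less RNA per cell. Of the 51 members, 26 were highest in 0 M at 84 h, 13 in 1 M at 84 h, 7 in 3 M at 84 h and 5 in 1 M at 36 h. Of the 6745 genes with 10 CPM anywhere, 12.2%, 22.5%, 12.3% and 10.9% were highest in these libraries, in the same order. The lowest library was 4 M at 84 h for 34 members, 3 M at 36 h for 16 and 3 M at 84 h for 1. For the 6745 genes these shares were 19.0%, 19.9% and 12.1%. The choice of members favours lows in 4 M at 84 h and 3 M at 36 h, and highs in the libraries they were compared with. In 43 of 51 members (84.3%) the 36 h library in 3 M and the 84 h library in 4 M were both below all other 4 libraries, an order that 23.7% of the 6745 genes with 10 CPM anywhere had. The choice of members favours this order. Every member had at least 1 read in each library, although 13 were under 1 CPM in 4 M at 84 h and 8 in 3 M at 36 h.

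**Figure D1:**
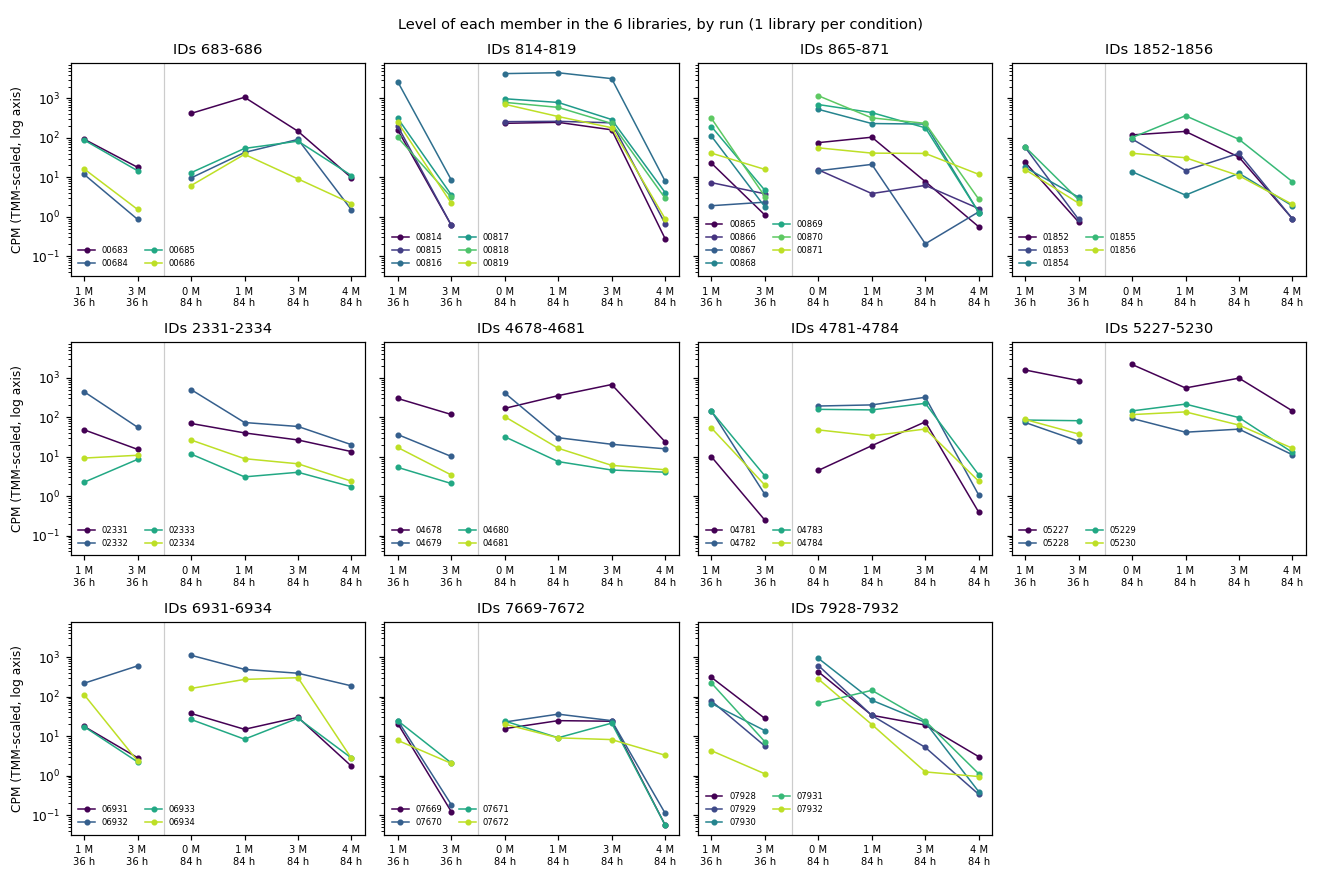
CPM (TMM-scaled, log axis) of each of the 51 members in the 6 libraries, 1 panel per run and 1 line per member, with 36 h left and 84 h right of the grey line. All lines of AG00814.1 to AG00819.1 are lowest in 3 M at 36 h and 4 M at 84 h, while in AG06931.1 to AG06934.1 the member AG06932.1 goes from 219 CPM in 1 M to 604 CPM in 3 M at 36 h and the other 3 members are lower there.

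The 51 members were first counted by comparison. Those under the CPM minimum could not be called, and the members measured numbered 48 for 4 M against 0 M (84 h) and 45 for 3 M against 1 M (36 h). In 4 M against 0 M at 84 h, 47 of 51 members were 4-fold or more lower, where 9.98% of the 6391 genes compared were so, and none higher, where 3.24% were. The members' median log2 fold change was -4.63, against 0.11 over all genes compared. In 3 M against 1 M at 36 h, 35 of 51 were 4-fold or more lower (8.82% of 6339 genes) and none higher (2.05%), with a median of -3.32 against 0.06. Nothing is read from these counts, since the members were picked on them. Just inside the 4-fold line were AG00871.1 at -2.22 and AG02331.1 at -2.36 in the first comparison, and AG07930.1 at -2.27 and AG04681.1 at -2.28 in the second. The nearest measured member outside it was AG00685.1 at -0.23 in the first and AG04679.1 at -1.82 in the second.

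The pair of comparisons that chose the runs leaves 1 comparison with no library in common with either, 3 M against 1 M at 84 h. There 46 members were measured, and 8 of 51 were 4-fold or more lower, where 4.6% of 6415 genes were, and 1 was 4-fold or more higher, where 2.56% were. The median over the 51 members was -0.46, against 0.02 over all genes compared. Less than 2-fold apart were 28 members, and the share of all genes for this was not counted. The 47 members that were 4-fold lower in 4 M can be set beside the 591 other genes that were 4-fold lower there. Of those members 14.9% were lower in 3 M than in 1 M at 84 h and 0% higher, and of the other genes 16.8% were lower and 7.28% higher. Their medians were -0.50 and -0.42. The shares of lower genes were thus close, and the difference was not tested.

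The remaining comparisons each share a library with the choice of members, and the values below describe them. In 4 M against 3 M at 84 h, 34 of 51 members (40 measured) were 4-fold or more lower (9.08% of 6308 genes) and none higher (2.33%), and the median was -3.56. In 3 M against 0 M at 84 h, with 50 measured, 11 were lower (3.22% of 6405 genes) and 4 higher (2.44%), with a median of -1.24. In 1 M against 0 M at 84 h, with 51 measured, 9 were lower (2.83% of 6429 genes) and 4 higher (4.56%), with a median of -0.50. The 4 higher members became 2 with scaling by total counts, 1 with a minimum of 50 CPM and 1 with intervals wholly beyond 4-fold. Over time in 3 M, 27 members (41 measured) were 4-fold or more higher at 84 h than at 36 h (8.35% of 6320 genes) and none lower (3.54%), with a median of 2.52. In 1 M, with 46 measured, 7 were higher at 84 h (3.83% of 6391 genes) and 3 lower (2.88%), with a median of 0.40. The 47 members and 591 other genes that were 4-fold lower in 4 M than in 0 M had like shares. With time in 3 M, 51.1% of these members and 46.5% of the other genes were 4-fold or more higher. In 4 M against 3 M, 66.0% and 60.4% were 4-fold or more lower. These differences were not tested.

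**Figure D2:**
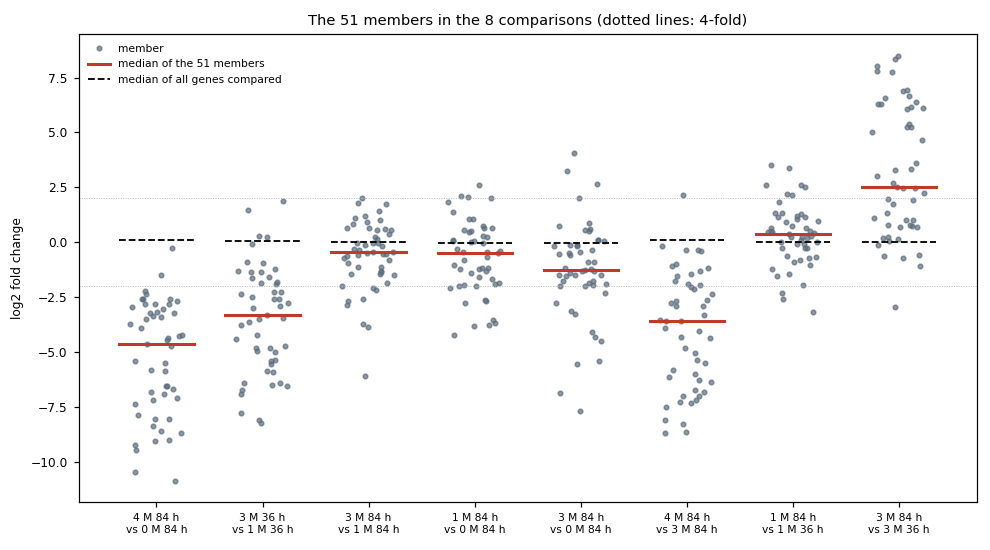
Log2 fold changes of the 51 members (points, spread sideways for legibility) in the 8 comparisons, with their median (red) and the median of all genes compared (dashed). The members' median is -4.63 in 4 M against 0 M and -3.32 in 3 M against 1 M at 36 h, both used to choose them, and -0.46 in 3 M against 1 M at 84 h.

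The runs were then described one by one, in an order set after their values were seen. First come those with summed levels of at most 18.9 CPM in both 3 M at 36 h and 4 M at 84 h. AG07928.1 to AG07932.1 and AG02331.1 to AG02334.1, both highest without added salt, come next, then the others. Some runs of the first and last groups were also highest without added salt. A run's level is the sum of its members' CPM. In that sum a long or abundant transcript weighs most, and levels were compared between libraries, not between genes.

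The run AG00814.1 to AG00819.1 had the highest summed CPM of the 11. Its 6 members summed to 3675 CPM in 1 M and 18.9 CPM in 3 M at 36 h, and to 7243, 6722, 4282 and 16.9 CPM in 0, 1, 3 and 4 M at 84 h. The sum was 428-fold lower in 4 M than in 0 M at 84 h (log2 ratio -8.74, interval -8.91 to -8.58) and 194-fold lower in 3 M than in 1 M at 36 h. The 4 remaining libraries were within 2-fold of each other, the lowest, 1 M at 36 h, at 50.7% of the 0 M level. In 3 M the run was 226-fold above its 36 h level at 84 h.

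AG00816.1, with the most reads in this run, stood at 2651 (1 M) and 8.70 CPM (3 M) at 36 h, and at 4261, 4479, 3176 and 8.02 CPM in 0, 1, 3 and 4 M at 84 h. AG00819.1 had the largest decrease of the run in 4 M, from 712 CPM in 0 M to 0.891 CPM (log2 fold change -9.47, interval -10.45 to -8.94), with 348 CPM in 1 M and 181 CPM in 3 M. At 36 h it was at 249 (1 M) and 2.22 CPM (3 M). All 6 members were below 0 in 3 M against 1 M at 84 h as well, between -1.44 and -0.13, short of 4-fold. AG00814.1, AG00815.1 and AG00816.1 differed there by -0.63, -0.13 and -0.50, and AG00817.1, AG00818.1 and AG00819.1 by -1.44, -1.36 and -0.94. Over time in 1 M, AG00818.1 had 103 CPM early (36 h) and 593 CPM late (84 h), a change above 4-fold (log2 fold change 2.53, interval 2.46 to 2.60), where AG00815.1 had 0.40 and AG00817.1 had 1.33. The members thus shared the low levels in 3 M at 36 h and 4 M at 84 h and differed in the other libraries. The first 3 members were also level between 0 M and 1 M at 84 h, whereas AG00819.1 went from 712 to 348 CPM.

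This run ended abruptly on the side of the higher numbers. AG00820.1, the next ID, stood at 24.3 and 48.8 CPM at 36 h and at 26.6, 22.6, 33.4 and 37.7 CPM in 0, 1, 3 and 4 M at 84 h. Its log2 fold change in 4 M against 0 M was 0.50, a step of 9.97 from that of AG00819.1. On the other side AG00813.1 was lower too, at 4.80 (0 M) and 0.501 CPM (4 M), but had no more than this in any library and so was under the 10 CPM minimum. AG00812.1 beyond it stood at 30.5 (0 M) and 15.6 CPM (4 M).

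The run AG04781.1 to AG04784.1 had a like profile, with its highest level in 3 M at 84 h. Its sum was 350 CPM in 1 M and 6.54 CPM in 3 M at 36 h, and 405, 412, 676 and 7.29 CPM in 0, 1, 3 and 4 M at 84 h. The sum was 103-fold above its 36 h level at 84 h in 3 M, and 55.5-fold lower in 4 M than in 0 M. AG04782.1, with the most reads, was at 144 and 1.11 CPM in 1 M and 3 M at 36 h, and at 193, 206, 322 and 1.06 CPM in 0, 1, 3 and 4 M at 84 h. All 4 members were above 0 in 3 M against 1 M at 84 h, the only run of the 11 for which this held.

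AG04781.1 differed from the other members of its run in the 84 h series. It stood at 4.51 CPM in 0 M, 19.1 CPM in 1 M, 76.8 CPM in 3 M and 0.390 CPM in 4 M, and it had 173 and 4 counts in 1 M and 3 M at 36 h. The ID before the run, AG04780.1, was likewise highest in 3 M and lowest in 4 M at 84 h, with 6.99, 27.0, 55.6 and 5.01 CPM in 0, 1, 3 and 4 M. AG04779.1 and AG04780.1 were both 4-fold or more lower in 3 M at 36 h, and without the CPM minimum the run at 36 h would hold 6 IDs. The ID after it went the other way. AG04785.1 was at 8.57 and 46.2 CPM in 1 M and 3 M at 36 h, and at 1.50, 6.63, 12.2 and 85.1 CPM in 0, 1, 3 and 4 M at 84 h, a log2 fold change of 5.72 in 4 M against 0 M. The step from AG04784.1 to AG04785.1 was 9.98, the largest at the 22 ends in this comparison.

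In the run AG07669.1 to AG07672.1 the summed level was nearly the same in 4 libraries, 3 M at 84 h included. The sums were 78.2 CPM in 1 M at 36 h and 82.7, 79.0 and 78.2 CPM in 0, 1 and 3 M at 84 h, against 4.44 CPM in 3 M at 36 h and 3.51 CPM in 4 M at 84 h. AG07671.1 had 418 counts in 0 M and 1 count in 4 M at 84 h (log2 fold change -7.17, interval -14.07 to -6.28), and stood at 24.6 and 2.10 CPM in 1 M and 3 M at 36 h. In 1 M and 3 M at 84 h it was at 9.10 and 21.4 CPM. AG07670.1, with the most reads, was at 24.9 and 0.185 CPM at 36 h and at 22.8, 36.1, 24.7 and 0.111 CPM in 0, 1, 3 and 4 M at 84 h. AG07672.1, the last member, had another profile, with 20.2 CPM in 0 M, 9.05 and 8.18 CPM in 1 M and 3 M, and 3.28 CPM in 4 M.

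Below this run the lowering went on, and above it stopped. AG07668.1 was under the CPM minimum with 76 counts in 0 M and 1 in 4 M at 84 h, a log2 fold change of -4.74. AG07673.1 on the other side stood at 105 (0 M) and 108 CPM (4 M) at 84 h, and at 99.3 and 74.1 CPM in 1 M and 3 M at 36 h.

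The run AG01852.1 to AG01856.1 was highest in 1 M at 84 h and its members differed in where they peaked. The sums were 175 and 9.69 CPM in 1 M and 3 M at 36 h, and 369, 559, 189 and 13.5 CPM in 0, 1, 3 and 4 M at 84 h. AG01855.1, with the most reads, was at 59.5 and 2.72 CPM at 36 h and at 102, 364, 91.9 and 7.74 CPM in 0, 1, 3 and 4 M at 84 h. AG01853.1 dipped where that gene peaked, with 93.9, 14.9, 40.8 and 0.891 CPM in the same order, and 57.8 and 0.864 CPM at 36 h. AG01854.1 dipped in 1 M at 84 h too, at 3.54 CPM between 13.9 CPM in 0 M and 12.7 CPM in 3 M. AG01852.1 had the largest decrease of this run in 4 M, from 119 to 0.891 CPM (log2 fold change -6.88, interval -7.87 to -6.35), with 146 and 32.5 CPM in 1 M and 3 M. At 36 h AG01852.1 was at 24.1 (1 M) and 0.741 CPM (3 M).

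Both IDs next to this run differed little between these libraries but had few reads. AG01851.1 had log2 fold changes of 0.06 in 4 M against 0 M and -0.74 in 3 M against 1 M at 36 h, and AG01857.1 had -0.24 and -0.44. Neither reached 10 CPM in 0 M or 4 M at 84 h. AG01851.1 was measured in 3 M against 1 M at both times. Its step from AG01852.1 was 4.08 at 36 h, a comparison that also chose this run, and 2.32 at 84 h.

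**Figure D3:**
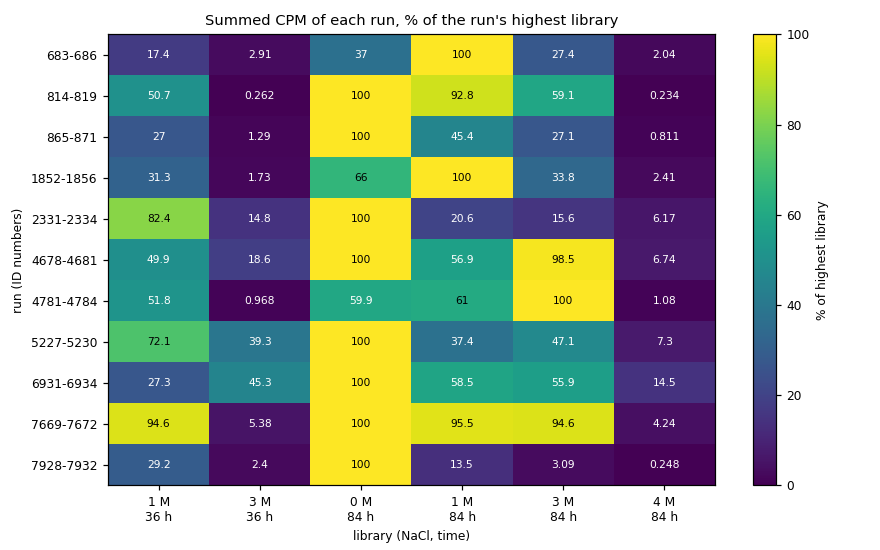
Summed CPM of each run in each library as a percentage of the run's highest library. In 3 M at 36 h and 4 M at 84 h AG00814.1 to AG00819.1 was at 0.262% and 0.234%, while AG06931.1 to AG06934.1 was at 45.3% in 3 M at 36 h and AG07928.1 to AG07932.1 was already at 3.09% in 3 M at 84 h.

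The run AG07928.1 to AG07932.1 followed the salt concentration at 84 h instead. Its sums were 2330 CPM in 0 M, 314 CPM in 1 M, 71.9 CPM in 3 M and 5.79 CPM in 4 M, and at 36 h 681 CPM in 1 M and 55.9 CPM in 3 M. The sum was 402-fold lower in 4 M than in 0 M (log2 ratio -8.65). In 3 M it differed little with time, with 71.9 CPM at 84 h and 55.9 CPM at 36 h. AG07930.1, with the most reads and the largest decrease in 4 M (log2 fold change -10.86), had 936, 81.4, 22.3 and 0.390 CPM in 0, 1, 3 and 4 M at 84 h, and 67.2 and 13.8 CPM in 1 M and 3 M at 36 h. This decrease was also the largest among all 51 members. AG07929.1 had 617, 33.5, 5.18 and 0.334 CPM in 0, 1, 3 and 4 M at 84 h, and 78.0 and 5.62 CPM at 36 h. AG07932.1 had 280, 19.7, 1.24 and 0.946 CPM at 84 h, and no more than 4.28 CPM at 36 h.

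In 3 M against 1 M at 84 h, all 5 members of this run were below 0 and 3 were 4-fold or more lower. Their log2 fold changes were -3.87 for AG07932.1 (interval -4.65 to -3.39), -2.67 for AG07929.1 and -2.58 for AG07931.1. Its sum was 4.36-fold lower, the only run sum of the 11 to be 4-fold lower there. AG07931.1 departed from this order, since it was higher in 1 M (145 CPM) than in 0 M (68.6 CPM) at 84 h, and highest in 1 M at 36 h (222 CPM).

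Both ends of this run were sharp in 4 M against 0 M. AG07927.1 was at 106 and 229 CPM in 1 M and 3 M at 36 h, and at 103, 69.6, 77.8 and 197 CPM in 0, 1, 3 and 4 M at 84 h. AG07933.1 was at 206 and 168 CPM at 36 h and at 164, 238, 178 and 219 CPM at 84 h. The steps in 4 M against 0 M were 8.04 and 8.47. At 36 h the step was 4.56 at the lower end and 1.55 at the upper, and in 3 M against 1 M at 84 h it was 0.99 at the lower end and 3.45 at the upper. A gene with the opposite profile stood 3 ID numbers after the run: AG07935.1 had 0.405, 1.74, 24.4 and 297 CPM in 0, 1, 3 and 4 M at 84 h, and 8.40 and 49.2 CPM in 1 M and 3 M at 36 h. It was picked out after its values were seen.

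The run AG02331.1 to AG02334.1 was also highest in 0 M at 84 h, in all 4 members. Its sums were 612, 126, 95.8 and 37.8 CPM in 0, 1, 3 and 4 M at 84 h, and 504 and 90.8 CPM in 1 M and 3 M at 36 h. AG02332.1, with the most reads and the largest decrease, had 504, 73.7, 58.5 and 20.2 CPM at 84 h and 445 and 56.0 CPM at 36 h. In 1 M its log2 fold change from 36 h to 84 h was -2.59. AG02333.1 and AG02334.1 did not follow it at 36 h, with log2 fold changes of 1.87 and 0.23 in 3 M against 1 M where AG02332.1 had -2.99.

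This run adjoined IDs with hardly any reads. AG02326.1 to AG02330.1 had at most 9 counts in any library, so the lower end could not be measured. AG02335.1 after it stood between 4.44 and 10.6 CPM in all 6 libraries, with a log2 fold change of 0.04 in 4 M against 0 M.

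In AG04678.1 to AG04681.1 a change of profile fell inside the run. AG04678.1, with the most reads, was highest in 3 M at 84 h, with 168, 354, 677 and 23.8 CPM in 0, 1, 3 and 4 M, and 300 and 118 CPM in 1 M and 3 M at 36 h. AG04679.1 was highest in 0 M instead, with 415, 30.4, 20.7 and 15.9 CPM at 84 h and 36.5 and 10.2 CPM at 36 h. AG04680.1 and AG04681.1 followed AG04679.1, with 32.2 and 104 CPM in 0 M against at most 7.53 and 17.2 CPM elsewhere. In 4 M against 3 M, the log2 fold change of AG04678.1 was -4.82 and those of AG04679.1, AG04680.1 and AG04681.1 were -0.38, -0.18 and -0.37. AG04680.1 and AG04681.1 were under the CPM minimum in that comparison.

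The 0 M profile went on past the last member. AG04682.1 was under the CPM minimum at 4.22 (0 M) and 0.223 CPM (4 M), and AG04683.1 had 147, 8.60, 2.07 and 0.612 CPM in 0, 1, 3 and 4 M at 84 h, a log2 fold change of -7.67 in 4 M against 0 M. Without the CPM minimum the run would end at AG04683.1 and hold 6 IDs. On the other side AG04677.1 was the single measured outside ID without a 4-fold step in this comparison: it had a log2 fold change of -1.62, a step of 1.19 from AG04678.1.

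The longest run, AG00865.1 to AG00871.1, held 7 IDs and at least 3 kinds of profile. Its sums were 691 and 32.9 CPM in 1 M and 3 M at 36 h, and 2560, 1161, 693 and 20.8 CPM in 0, 1, 3 and 4 M at 84 h. The core was formed by AG00868.1, AG00869.1 and AG00870.1, with log2 fold changes of -8.57, -8.97 and -8.66 in 4 M against 0 M. AG00870.1, with the most reads, was at 313 and 3.27 CPM at 36 h and at 1169, 321, 234 and 2.78 CPM in 0, 1, 3 and 4 M at 84 h. AG00869.1, with the largest decrease, was at 194 and 4.69 CPM at 36 h and at 700, 438, 180 and 1.28 CPM at 84 h.

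Around this core the other members changed less or in another order. AG00867.1 had 1.91 and 2.35 CPM in 1 M and 3 M at 36 h and 14.7, 21.3, 0.207 and 1.34 CPM in 0, 1, 3 and 4 M at 84 h, the only member of the 51 whose lowest library was 3 M at 84 h. In 3 M against 1 M at 84 h its log2 fold change was -6.06 (interval -8.57 to -5.32), that of AG00865.1 was -3.73 and that of AG00868.1 was -0.04. AG00871.1 went from 56.0 CPM in 0 M to 11.9 CPM in 4 M, a log2 fold change of -2.22, and AG00872.1 after it had 0.08.

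Before the run, lower levels in 4 M than in 0 M at 84 h, and in 3 M than in 1 M at 36 h, went on for further IDs. AG00864.1 had 15.5 and 0.185 CPM in 1 M and 3 M at 36 h, and 8.50, 20.7, 19.2 and 0.167 CPM in 0, 1, 3 and 4 M at 84 h. It missed the 10 CPM minimum in 4 M against 0 M, with a log2 fold change of -4.94. AG00861.1 and AG00862.1 were 4-fold or more lower in that comparison, at -4.44 and -3.53. AG00863.1, between them and AG00864.1, had -1.65 and was under the CPM minimum. In 4 M against 3 M at 84 h, AG00861.1 to AG00864.1 formed a run of their own. AG00861.1 was lowest in 1 M at 84 h (1.07 CPM, against 32.7 CPM in 0 M and 17.1 CPM in 3 M), unlike the members.

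The run AG00683.1 to AG00686.1 was chosen from the 36 h comparison alone. Its members' log2 fold changes there were -2.36, -3.62, -2.58 and -3.32. In 4 M against 0 M at 84 h 1 of them was called lower, AG00683.1 at -5.40, and AG00685.1 had -0.23 (interval -0.52 to 0.04). AG00684.1 and AG00686.1 were under the CPM minimum there. AG00683.1, with the most reads, was at 92.8 and 18.0 CPM at 36 h and at 417, 1070, 147 and 9.74 CPM in 0, 1, 3 and 4 M at 84 h. AG00684.1 peaked in 3 M, with 9.65, 42.7, 91.6 and 1.50 CPM. AG00685.1 peaked at 36 h in 1 M, with 88.4 CPM, and had 13.1, 54.1, 82.8 and 11.1 CPM at 84 h.

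These 4 members were higher in 1 M than in 0 M at 84 h, by 1.36 to 2.61 on the log2 scale, the one run of the 11 in which every member was. AG00687.1 after the run had -3.23 at 36 h and missed the CPM minimum at 9.67 CPM. AG00682.1 before it was nearly level, between 59.3 and 114 CPM in all 6 libraries.

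The run AG06931.1 to AG06934.1 held a member that went against the others at 36 h. AG06932.1, with the most reads, was at 219 and 604 CPM in 1 M and 3 M at 36 h (log2 fold change 1.46, interval 1.41 to 1.52), and at 1122, 492, 393 and 188 CPM in 0, 1, 3 and 4 M at 84 h. AG06931.1, AG06933.1 and AG06934.1 had log2 fold changes of -2.59, -2.90 and -5.53 there. With AG06932.1 as its most abundant member by CPM, the run's summed level was 1.66-fold higher in 3 M than in 1 M at 36 h. AG06934.1, with the largest decrease in 4 M, was at 113 and 2.35 CPM at 36 h and at 162, 274, 303 and 2.73 CPM in 0, 1, 3 and 4 M at 84 h.

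Its ends were sharp on both sides in 4 M against 0 M. AG06930.1 was between 52.5 and 144 CPM in the 6 libraries and AG06936.1, the second ID after the run, between 44.5 and 85.1 CPM. AG06935.1, the next ID after it, was at 313 CPM in 1 M at 84 h and at no more than 31.1 CPM elsewhere, a profile that no member of the run had.

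The run AG05227.1 to AG05230.1 was 4-fold or more lower in 4 M in every member and short of 4-fold at 36 h. Its sums were 1828 and 996 CPM in 1 M and 3 M at 36 h, and 2536, 949, 1194 and 185 CPM in 0, 1, 3 and 4 M at 84 h. In 4 M against 0 M the members' log2 fold changes were -3.91, -3.04, -3.48 and -2.82, the narrowest range of the 11 runs. At 36 h, with 3 M against 1 M, they were -0.89, -1.57, -0.06 and -1.22. AG05227.1, with the most reads and the largest decrease, was at 1581 and 852 CPM at 36 h and at 2180, 554, 982 and 145 CPM in 0, 1, 3 and 4 M at 84 h. AG05229.1 and AG05230.1 were highest in 1 M at 84 h, AG05229.1 with 145, 216, 98.2 and 12.9 CPM in 0, 1, 3 and 4 M.

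On the lower side this run was bounded by AG05226.1, which was between 69.0 and 154 CPM, highest in 4 M. AG05223.1, 4 ID numbers before the run, was higher in 4 M than in 0 M by 5.90 on the log2 scale, from 3.76 to 230 CPM. On the upper side AG05231.1 had 1.62 CPM in 0 M and was not measured, AG05232.1 had a log2 fold change of -0.57, and AG05233.1 and AG05234.1 were again lower, at -5.04 and -2.16.

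**Figure D4:**
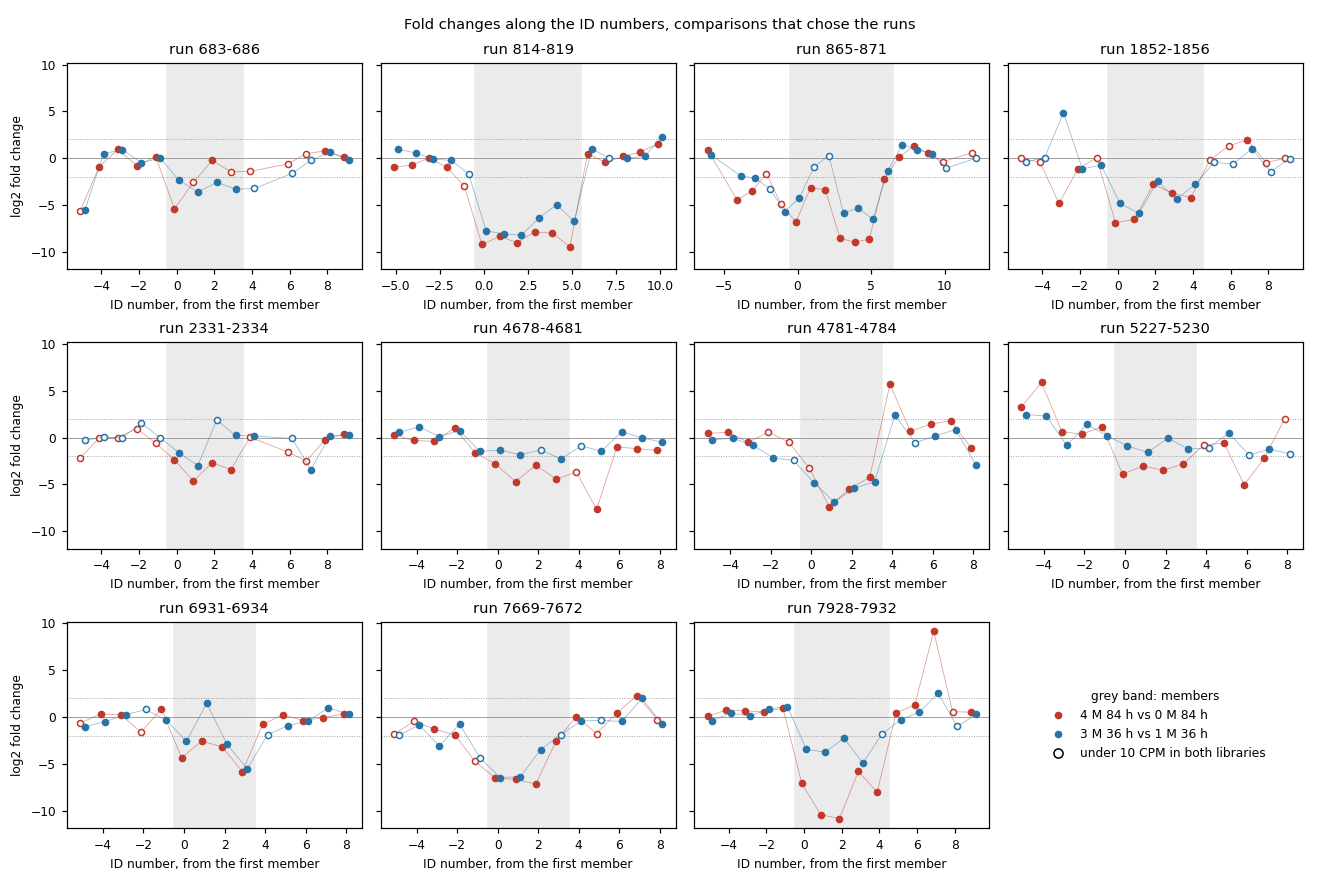
Log2 fold changes along the ID numbers for each run (grey band) and 5 listed IDs on each side, in 4 M against 0 M at 84 h (red) and 3 M against 1 M at 36 h (blue), the comparisons used to choose the runs. Open points had under 10 CPM in both libraries and dotted lines mark 4-fold. AG00814.1 to AG00819.1 drop by a step of 9.97 at the upper end, while the lower side of AG00865.1 to AG00871.1 passes through AG00864.1 at -4.94.

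Over all 22 ends, 11 of the nearest outside IDs reached the CPM minimum in 4 M against 0 M at 84 h, and at 10 of these ends the log2 fold change of the outside ID was at least 2 above that of the end member. Neighbouring ID numbers were 4-fold or more apart in their fold changes in 18.2% of the 5117 measured pairs. The count became 16 with no CPM minimum and 19 with the median of up to 5 outside IDs in place of the nearest. A run ended where the next ID was short of 4-fold lower or was under the CPM minimum. A measured outside ID therefore had to be short of 4-fold lower in the comparison that chose the run, so nothing is read from this count. The other 11 outside IDs were under the CPM minimum, and 4 of them were themselves 4-fold or more lower: AG00813.1, AG00864.1, AG04682.1 and AG07668.1. At 36 h, 13 outside IDs were measured and 7 ends had a 4-fold step (16.9% of 5047 neighbouring pairs), and AG00864.1 was 4-fold lower itself. The same changes gave 12 and 17 ends at 36 h.

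Of the 110 listed IDs within 5 places of a run, 73 were measured in 4 M against 0 M, with 6 4-fold or more lower and 5 4-fold or more higher, where 9.98% and 3.24% of all genes were. Their median log2 fold change was 0.25. The higher ones were AG04785.1, AG05222.1, AG05223.1, AG07676.1 and AG07935.1, by between 2.30 and 9.17. The lower ones were AG00861.1, AG00862.1, AG01849.1, AG04683.1, AG05233.1 and AG05234.1. All 11 were picked out after their values were seen.

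Sharpness was then examined in 3 M against 1 M at 84 h, which the choice did not use. Of 15 measured outside IDs, 4 were 4-fold or more above the end member, and 5 were 4-fold or more apart in either direction, where 11.1% of 5106 neighbouring pairs were. The 4 ends were the lower ends of AG00683.1, AG00865.1 and AG01852.1 and the upper end at AG07932.1. The fifth was the upper end at AG06934.1, in the other direction, where AG06935.1 had a log2 fold change of -3.33. Within the runs 6 of 33 measured neighbouring pairs were as far apart. The median absolute step was 1.48 at the ends and 0.83 within the runs, against 0.63 over all neighbouring pairs. Of the 11 runs, 2 had all members below 0, 1 had all above 0 and 8 were of mixed sign.

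**Figure D5:**
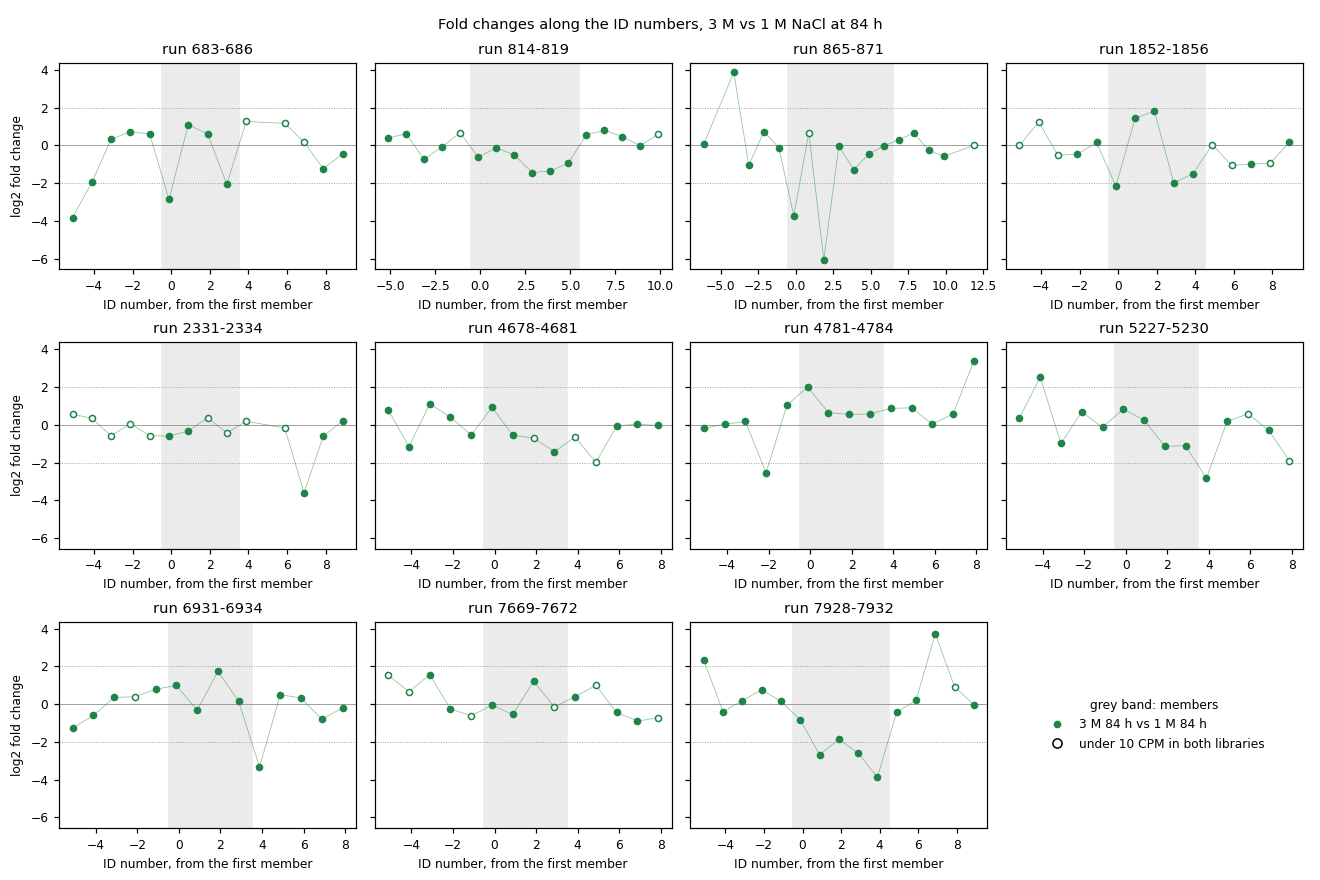
Log2 ratios of the 84 h libraries, 3 M over 1 M, along the ID numbers, drawn as for the other comparisons; this comparison shares no library with those that chose the runs. AG07928.1 to AG07932.1 lie between -3.87 and -0.82 and AG04781.1 to AG04784.1 between 0.55 and 2.01, while AG00683.1 to AG00686.1 hold members on both sides of 0.

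The same search was also counted over all ID numbers. By the inferred rule it is the search that chose the runs. All 9 lower runs it found in 4 M against 0 M therefore lay within the runs described above. So did all 5 in 3 M against 1 M at 36 h. The shares of lower genes in runs in these comparisons describe the choice, and nothing is read from their contrast with the higher genes. Lower runs of at least 4 IDs held 43 of the 638 genes 4-fold lower in 4 M against 0 M (6.74%), and 23 of the 559 genes 4-fold lower in 3 M against 1 M at 36 h (4.11%). No run of 4 was found among the 207 and 130 genes 4-fold or more higher in these comparisons. In 3 M against 1 M at 84 h there was no such run in either direction. No chance model was applied to these numbers, and the lower lists are longer than the higher ones. Without the CPM minimum, 21 lower and 3 higher runs were found in 4 M against 0 M, so the number of runs depends on that minimum.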

How the data were processed

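The authors deposited unnormalized whole-number read counts for each gene. Per the submitters' processing notes, their tools included TopHat2 2.0.8b and HTSeq 0.5.4p2. For the build, annotation, strand setting and filters no source used here gives a statement, so reads of overlapping, antisense or paralogous genes may be shared between IDs, neighbours in a run included. Genes absent from a library's list were set to 0 reads.

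Libraries were scaled by TMM over all 6 (edgeR 4.0.16, R 4.3.3). Fold changes are log2 ratios with a prior count of 2 scaled to library size. A gene was compared, or measured, with at least 10 CPM in at least 1 of the 2 libraries, and called at 4-fold. Intervals are Clopper-Pearson (SciPy 1.17.1). The calls and the run search were tried on simulated counts with planted changes. These counts held counting error only, so they say nothing of the spread between cultures. In each run the members with the most reads and the largest decrease in 4 M against 0 M are given in full, with the outside IDs. The members, the lists and the comparisons were chosen with earlier results of these data known. DESeq2 1.42.0 size factors and other settings were alternatives.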

Additional observations from a re-analysis of the deposited data

Results flagged for a closer look

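AG04781.1, the first member of the run AG04781.1 to AG04784.1, was 4-fold or more lower in 3 M than in 1 M NaCl at 36 h (log2 fold change -4.81, interval -7.23 to -3.96) and 4-fold or more higher at 84 h (2.01, interval 1.84 to 2.19). It stands here because the same salt contrast went in opposite directions at the 2 times. Its run was chosen from the 36 h comparison alone, so the 36 h value describes the choice. With 1 library per condition the difference between the times was not tested. The 84 h value lies at the 4-fold line and fell below it with DESeq2 size factors. At 36 h 0 members of the 51 were 4-fold higher, which the choice of members favours, and at 84 h AG04781.1 was the 1 that was.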

How the results depend on the processing

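Of 250 values of 59 results recomputed under the alternatives, 216 stayed within 1.5 times of the reported count, or, for a median, within its order-statistic interval. A reversal could be registered for medians only, and 0 of them reversed. No paired analysis was possible because each condition has 1 library and the labels give no replicate numbers, and no library could be left out for the same reason. With DESeq2 size factors, the members higher in 3 M against 1 M at 84 h went from 1 to 0 and the run sums lower with time in 1 M from 1 to 0. Scaling by total counts gave 2 members higher in 1 M against 0 M in place of 4, and 1 lower run over all IDs with time in 3 M in place of 2. A prior count of 0.5 moved no count beyond 1.5 times. With intervals wholly beyond 4-fold, 1 member was higher in 1 M against 0 M, and 0 were at 84 h in 3 M against 1 M.

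A CPM minimum of 50 tests fewer genes. It left 22 members lower in 3 M against 1 M at 36 h, 22 in 4 M against 3 M and, at 84 h, 4 in 3 M against 1 M. It left 1 higher in 1 M against 0 M. Lower runs over all IDs then numbered 4 in 4 M against 0 M, 2 in 3 M against 1 M at 36 h, 3 in 4 M against 3 M and 0 with time in 3 M, and the sharp ends were 4 at 36 h and 2 at 84 h (3 M against 1 M). With no CPM minimum, more IDs were tested and lower runs numbered 21 (4 M against 0 M), 14 (3 M against 1 M, 36 h), 2 (the same, 84 h), 1 (1 M against 0 M), 2 (3 M against 0 M), 15 (4 M against 3 M) and 2 (time in 1 M). Higher runs numbered 3, 1 and 1 in the first 3 of these, 2 in 3 M against 0 M and 11 with time in 3 M. Then 1 member was higher in 4 M against 3 M and 1 lower with time in 3 M, and 16 ends were sharp in 4 M against 0 M and 12 at 36 h. With the median of up to 5 outside IDs in place of the nearest, 19 ends were sharp in 4 M against 0 M and 17 at 36 h. Counts under 10 CPM limit what can be said of an end: 11 of 22 outside IDs were under it in 4 M against 0 M.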

Other observations

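In comparisons other than the pair that chose the 11 runs, 4 further runs of at least 4 consecutive IDs were found. The longest, AG04731.1 to AG04736.1, held 6 IDs and was highest in 1 M at 84 h. Its summed level was 389 and 118 CPM in 1 M and 3 M at 36 h, and 866, 4471, 1901 and 165 CPM in 0, 1, 3 and 4 M at 84 h. It was lower in 4 M than in 0 M by a log2 ratio of -2.39 (interval -2.45 to -2.33), but not in every ID by 4-fold. AG00167.1 to AG00170.1 were each 4-fold or more below their 36 h level at 84 h in 3 M, and summed to 107 CPM in 3 M at 36 h against 5.69 to 39.8 CPM in the other libraries. These runs were picked out after their values were seen.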
